A study of Bos taurus with 90 samples.

Results

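miR-451, miR-144 and miR-486 are the miRNAs most often used to trace red blood cells in tissue RNA. They were taken from the CPM tables (the reads of a miRNA for every 1000000 reads mapped to annotated miRNAs) by name, which gave 3 of the 388 miRNAs listed in any tissue. All 3 were listed in all 5 tissues, as were 289 miRNAs in total. The samples came from mid-lactation Chinese Holstein dairy cows whose diet was based on alfalfa hay, corn stover or rice straw as forage. Liver, mammary gland and pieces labelled as epithelium of the rumen, duodenum and jejunum were taken after slaughter and frozen, with 6 samples per diet in each tissue, 18 per tissue and 90 in all. The frozen pieces were ground before RNA extraction, and no step to remove blood is described. The labels give no age, sequencing lane or batch.

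miR-451 and miR-144 are made from a single primary transcript that the erythroid factor GATA1 switches on as red blood cells mature. miR-451 is unusual in that Argonaute 2 cuts its precursor in place of Dicer, and it stays abundant in mature red blood cells, which have lost their nucleus. miR-144 restrains antioxidant genes in these cells. miR-486 lies in the ankyrin gene ANK1, which encodes a protein of the red blood cell membrane skeleton, and it is also made in striated muscle from a second promoter of that gene. In the RefSeq annotation of the ARS-UCD2.0 cattle assembly, MIR451 and MIR144 were next to each other between ERAL1 and FLOT2, and MIR486 lay inside ANK1.

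Most miRNAs that define the labelled tissues were present. miR-122, the hepatocyte miRNA, averaged 11021 CPM in liver and 7.88 CPM in mammary gland and was not listed in the other 3 tissues. miR-205 of stratified and glandular epithelium averaged 33692 CPM in rumen and 3456 CPM in mammary gland, and miR-192 of intestinal and liver epithelium averaged 256562 CPM in duodenum, 193633 CPM in jejunum and 137788 CPM in liver. miR-1 of striated muscle, the other known source of miR-486, had medians from 1.22 CPM in rumen to 16.2 CPM in duodenum, with 1 mammary gland library at 430 CPM. Another miRNA of striated muscle, miR-133a, was higher, with means from 58.2 CPM in rumen and 114 CPM in mammary gland to 292 CPM in jejunum. Smooth muscle miR-145 averaged 2296 CPM in rumen, 2241 CPM in duodenum and 2384 CPM in jejunum. In mammary gland it averaged 1226 CPM and in liver 586 CPM. Whether the pieces labelled as epithelium held smooth muscle was not tested. The part of muscle in the miR-486 levels was not tested. miR-203 of stratified epithelium and miR-206 of muscle were listed in none of the tissues.

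Mapped miRNA reads per library ran from 937556 to 15621501. Of the mammary gland libraries, 4 stood apart from the rest of their tissue, with a median Spearman rho to the other mammary gland libraries of 0.908 to 0.949 over all miRNAs but the 3, against 0.955 to 0.984 for the other 14. They had 937556 to 2624975 reads, against 4421565 to 14328839 for the other 14. Of these 4 libraries, 3 came from the rice straw diet and 1 from alfalfa hay. The cut in rho at 0.95 was chosen after seeing the data. Rice straw replicates 3 and 2, at 0.955 and 0.956, lay just above it. In liver, the library of alfalfa hay replicate 2 held 1525 CPM of miR-205, which lay between 0 and 13 CPM in the other 17, and 166 CPM of miR-200c, against 13.1 to 37.9 CPM. Results that rest on these 5 libraries are given with and without them.

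Over all 18 libraries of a tissue, all 3 miRNAs had their highest mean and median in liver. miR-451 lay between 303 and 2471 CPM in liver, with a median of 989 CPM. In mammary gland it lay between 53.7 and 564 CPM, with a median of 251 CPM. In rumen its lowest, median and highest values were 26.9, 148 and 725 CPM. The liver values thus overlapped those of mammary gland and rumen, and rumen was the most spread of the 5 tissues on the log2 scale. Duodenum held 54 to 172 CPM with a median of 99 CPM, the narrowest spread, and jejunum held 45.6 to 559 CPM with a median of 99.1 CPM. Every liver library was above every duodenum library. For separations of this kind between tissues, here and below, the share of all miRNAs is not given. The means were 1064 ± 563 CPM in liver, 282 ± 135 CPM in mammary gland, 204 ± 181 CPM in rumen, 132 ± 114 CPM in jejunum and 106 ± 36.6 CPM in duodenum (SD, n = 18 each).

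miR-144, which shares its transcript with miR-451, was detected at far fewer reads. It lay between 22.9 and 158 CPM in liver with a median of 77.6 CPM, and between 0.655 and 26.7 CPM in mammary gland with a median of 15 CPM. In rumen it ran from 0.855 to 25.3 CPM with a median of 6.86 CPM. All but 1 of the liver libraries were above the highest rumen library, and no liver library overlapped duodenum. Duodenum spanned 3.44 to 14.7 CPM with a median of 7.01 CPM, and jejunum 2.54 to 43 CPM with a median of 7.83 CPM. The lowest mammary gland value rested on 1 read, which an exact 95% binomial interval places between 0.0166 and 3.65 CPM, and the lowest rumen value rested on 2 reads, with an interval of 0.104 to 3.09 CPM. These intervals cover counting error only.

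miR-486 was the most abundant of the 3 by CPM in every tissue. CPM values of different miRNAs also carry differences in how well each is ligated and amplified, so they are not copy numbers. It lay between 828 and 4858 CPM in liver with a median of 2325 CPM, and between 714 and 4051 CPM in mammary gland with a median of 1513 CPM. The 2 tissues overlapped almost fully. Jejunum held 222 to 1428 CPM with a median of 453 CPM, duodenum 208 to 513 CPM with a median of 335 CPM, and rumen 54.6 to 680 CPM with a median of 270 CPM. All liver and all mammary gland libraries were above every rumen and every duodenum library. Ranked by mean CPM, miR-486 was number 33 of the 330 miRNAs of liver and 51 of the 328 of mammary gland, while it was number 110 of 340 in rumen.

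**Figure D1:**
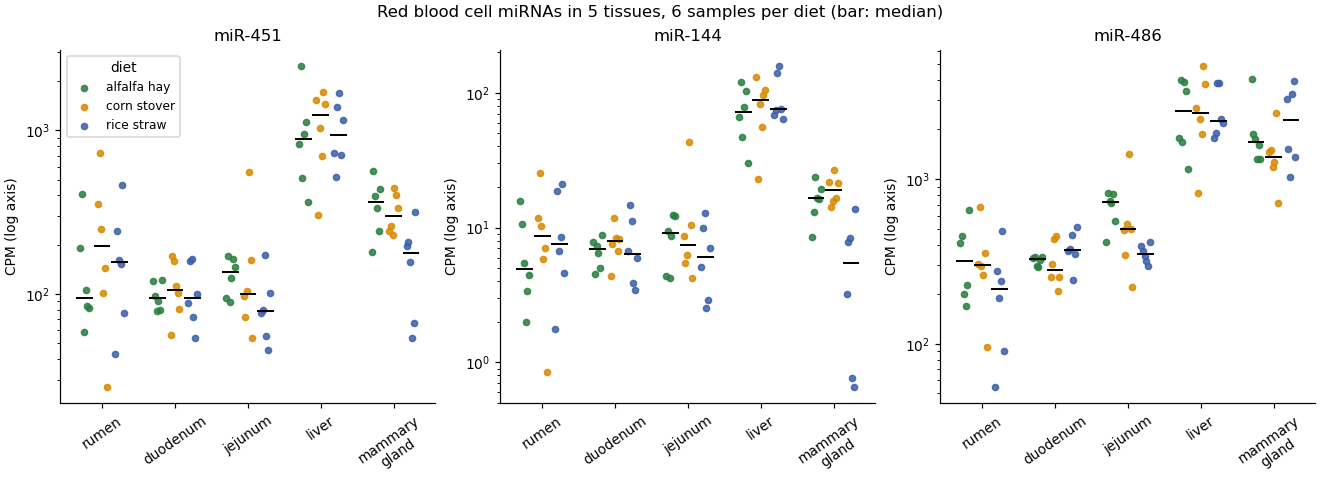
CPM of miR-451, miR-144 and miR-486 on a log axis in each of the 90 libraries, by tissue and diet, with a bar at the median of each 6. Liver holds the highest medians of miR-451 and miR-144 on every diet, miR-486 of mammary gland on rice straw has a median of 2287 CPM against 2258 CPM in liver, and the rice straw libraries of mammary gland reach down to 0.655 CPM of miR-144.

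Together the 3 miRNAs took up 0.382% ± 0.167 of the miRNA reads in liver and 0.223% ± 0.0937 in mammary gland. The shares were 0.068% ± 0.0397 in jejunum, 0.0515% ± 0.0336 in rumen and 0.0454% ± 0.0105 in duodenum (SD, n = 18). In such bulk samples, fewer red blood cells and less of these miRNAs per cell cannot be told apart.

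The tissues were compared by limma on log2(CPM + 1) over the 289 miRNAs listed in all of them, and changes are given on that scale, which understates the change of low miRNAs. Several tissues came from each cow, and the main test treats the 90 libraries as independent. Liver was higher than rumen for 3 of 3 miRNAs, while 28.4% of all 289 were higher there, and higher than duodenum and jejunum for 3 of 3 as well, against 31.8% and 31.1% of all. miR-144 was higher in liver than in rumen by 3.27 ± 0.29 (log2, SE), miR-486 by 3.26 ± 0.23 and miR-451 by 2.66 ± 0.29, where the median miRNA changed by -0.47. The adjusted p-values of these 3 were at most 1.83e-14 in limma. Against duodenum the same differences were 3.28 for miR-144, 3.19 for miR-451 and 2.86 for miR-486, and against jejunum they were 3.17, 3.08 and 2.32. Without the liver library that held miR-205, the difference of miR-451 from rumen was 2.58.

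The 3 differed in where mammary gland stood. Compared with liver it was lower for 3 of 3 miRNAs, while 30.1% of all were lower. The size ran from -2.71 ± 0.29 for miR-144 and -1.91 ± 0.29 for miR-451 to -0.49 ± 0.23 for miR-486, whose limma adjusted p of 0.0498 was just inside the threshold. miR-486 no longer passed with a replicate block (adjusted p = 0.0529, limma), without the liver library that held miR-205 (-0.44, adjusted p = 0.0778 in limma), or by edgeR (-0.28, adjusted p = 0.345) or DESeq2 (-0.32, adjusted p = 0.26). Without the 4 mammary gland libraries it did pass, at -0.78 with a limma adjusted p of 0.00164.

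Compared with the digestive tract, mammary gland was higher for miR-451 and miR-486, while miR-144 missed the threshold. Against rumen, 2 of 3 were higher, where 32.9% of all were: miR-486 by 2.78 ± 0.23 and miR-451 by 0.75 ± 0.29 (adjusted p = 3.05e-20 and 0.0137, limma). The difference of miR-144 was 0.56 ± 0.29, with an adjusted p of 0.0667 in limma, and it passed with TMM scaling (0.83, adjusted p = 0.00361) and in edgeR (0.82, adjusted p = 0.0057). Against duodenum 2 of 3 were higher, where 38.4% of all were, by 2.38 for miR-486 and 1.28 for miR-451, with miR-144 at 0.57 and an adjusted p of 0.0657 in limma. Against jejunum, again 2 of 3 were higher, where 37.7% of all were, by 1.83 for miR-486 and 1.16 for miR-451, with miR-144 at 0.46 (adjusted p = 0.139, limma). Leaving out the 4 mammary gland libraries brought miR-144 past the threshold against all 3 digestive tissues, at 1.09, 1.09 and 0.98 (adjusted p of at most 0.000544 in limma), and raised miR-451 to 1.09 against rumen.

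Within the digestive tract the members were close. In jejunum, 1 of 3 was higher than in rumen, where 29.4% of all were. It was miR-486, by 0.95 ± 0.23 (adjusted p = 0.000135, limma). Between duodenum and rumen, where limma called 71.6% of all 289, it called 0 of 3, also at an unadjusted p under 0.05. edgeR called 0 of 3 and DESeq2 called miR-451 (-0.62, adjusted p = 0.0293). miR-486, at 0.40 on the deposited CPM, passed with TMM scaling (0.77, adjusted p = 0.00751) and with upper-quartile scaling (0.59, adjusted p = 0.0432, limma). Between jejunum and duodenum, where limma called 10% of all after adjustment, limma, edgeR and DESeq2 each called 0 of 3 after adjustment and 1 of 3 before it. For counts before adjustment or by edgeR or DESeq2, the share of all miRNAs is not given. In limma that 1 was miR-486, at 0.55 ± 0.23 with an adjusted p of 0.13. By mean, the order of miR-451 was liver, mammary gland, rumen, jejunum and duodenum, of which the last 3 did not differ beyond their spread. miR-144 was highest in liver, and the other 4 did not differ beyond their spread in limma with all libraries in. The order of miR-486 was liver, mammary gland, jejunum, duodenum and rumen, in which neither jejunum and duodenum nor duodenum and rumen differed beyond their spread on the deposited CPM.

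The share of all miRNAs called higher depended on the scaling, whereas the liver differences of the 3 from the digestive tissues kept their direction and passed under TMM and upper-quartile scaling. Of 239 miRNAs called between liver and rumen, 82 were higher and 157 lower in liver on the deposited CPM, against 120 and 122 with TMM scaling and 139 and 108 with upper-quartile scaling. Upper-quartile scaling gave 131 higher and 107 lower between liver and duodenum, 125 and 100 between liver and jejunum, and 82 higher and 138 lower between mammary gland and liver, where the deposited CPM gave 92 and 145, 90 and 150, and 113 and 87. Between mammary gland and rumen the split was 95 higher and 144 lower on the deposited CPM and 113 and 112 with TMM scaling, between jejunum and rumen it was 85 and 127 against 129 and 93, and between duodenum and rumen 78 and 129 against 123 and 89.

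Within a tissue, miR-451 and miR-144 rose and fell together. Over the 18 samples, Pearson's r of log2(CPM + 1) was 0.93 in jejunum, 0.90 in rumen, 0.89 in liver, 0.83 in duodenum and 0.88 in mammary gland, where it was 0.57 over the 14 libraries other than the 4 that stood apart. Spearman's rho was 0.88, 0.91, 0.86, 0.80 and 0.74 in that order. Every one of these passed the threshold over the 15 relations tested, with permutation p-values between 1e-05, the smallest that 100000 resamples can give, and 4e-05 for r, and an adjusted p of at most 8.57e-05. For rho the permutation p was at most 0.00063 and the adjusted p at most 0.00135. Without the 2 samples farthest from the median of miR-451, r was 0.84 in rumen and jejunum, 0.81 in liver, 0.75 in duodenum and 0.63 in mammary gland. Centred on the mean of each diet, r lay between 0.81 in mammary gland and 0.94 in jejunum.

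miR-486, from its own locus, followed the other pair in liver, rumen and jejunum. In liver, r was 0.90 with miR-451 and 0.89 with miR-144 (permutation p = 1e-05, adjusted p = 2.5e-05 for each), with rho of 0.86 and 0.85 and r of 0.82 and 0.77 without the 2 farthest samples. The library that held miR-205 did not carry this, since r without it was 0.90 and 0.88. In rumen, r was 0.74 with both (adjusted permutation p = 0.000683 and 0.0009), rho was 0.72 and 0.73, and r was 0.63 for both without the 2 farthest samples. In jejunum, r was 0.82 with miR-451 and 0.70 with miR-144 (adjusted permutation p = 0.000112 and 0.00197), and rho was 0.73 and 0.55. The corn stover replicate 4 library had the highest jejunum level of all 3 miRNAs, at 559, 43 and 1428 CPM. Without the 2 farthest samples, the jejunum r with miR-144 was 0.44 and no longer passed (adjusted permutation p = 0.0917), while that with miR-451 was 0.67. In duodenum, where the 3 varied least, r of miR-486 was 0.46 with miR-451 and 0.40 with miR-144 (rho 0.46 and 0.40), and neither passed (adjusted permutation p = 0.0636 and 0.104). Both passed once values were centred on diet means, at 0.52 and 0.47 (adjusted permutation p = 0.0302 and 0.0497).

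**Figure D2:**
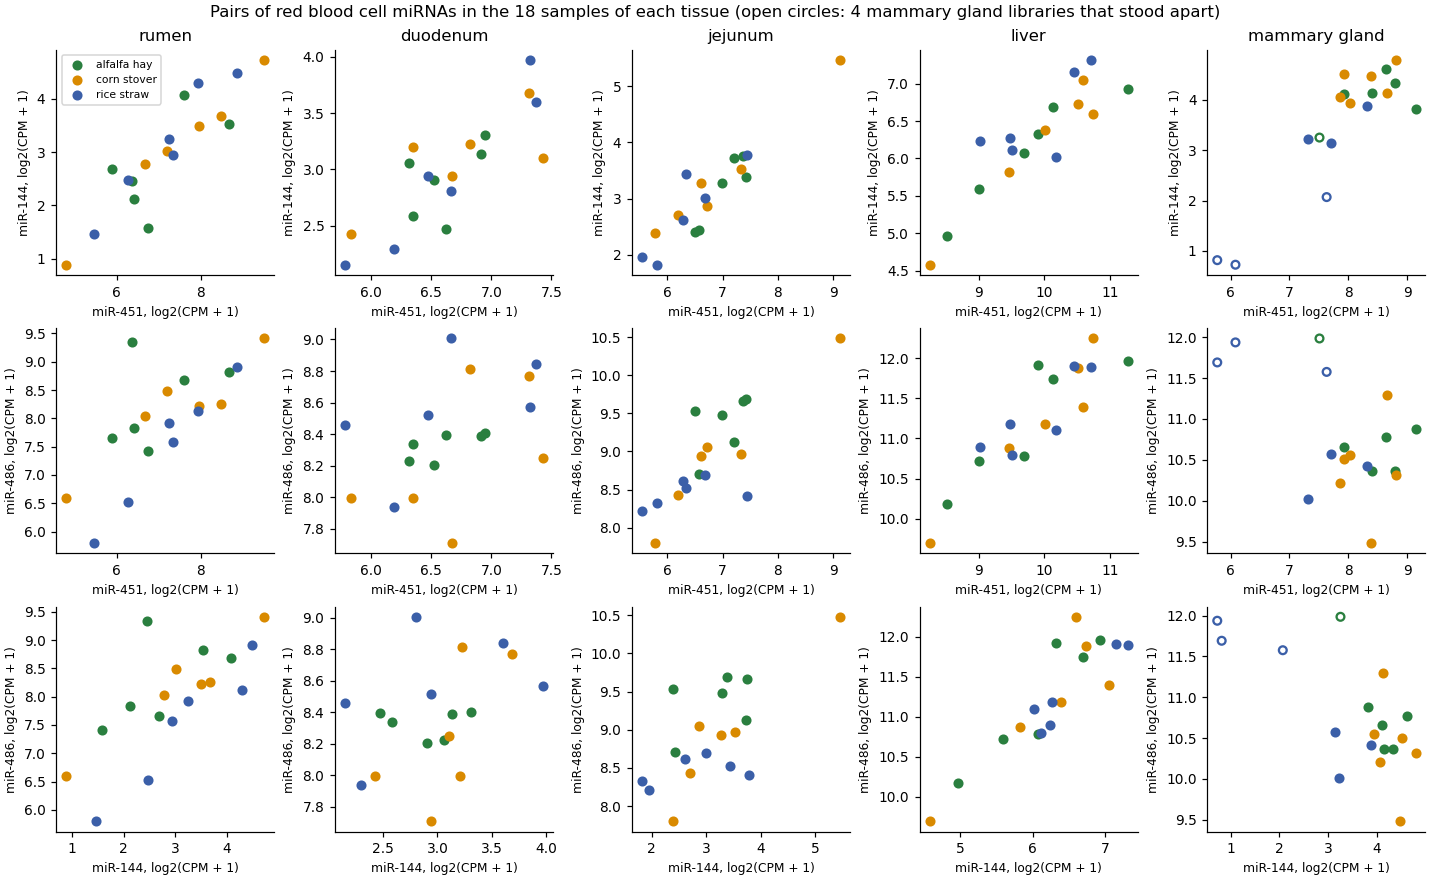
Each pair of the 3 miRNAs as log2(CPM + 1) in the 18 libraries of each tissue, coloured by diet, with axes scaled to each panel. miR-451 and miR-144 lie along a rising line in all 5 tissues, whereas in mammary gland the 4 open circles hold the highest miR-486 and pull its relation with the other pair downward.

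In mammary gland, r of miR-486 with the other pair was negative on the deposited CPM with the 4 libraries that stood apart in, and positive or near 0 without them. With all 18 in, r of miR-486 with miR-451 was 0.05 with TMM scaling and 0.17 with upper-quartile scaling. The negative r of miR-486 with miR-144 did not turn sign with either scaling. The 4 libraries held 3051 to 4051 CPM of miR-486, above the 714 to 2517 CPM of the other 14. They held 53.7 to 197 CPM of miR-451 against 158 to 564 CPM, and 0.655 to 8.53 CPM of miR-144 against 7.79 to 26.7 CPM. The 4 thus had more miR-486 than any other mammary gland library and lay at the low end for the other pair. They overlapped the other 14 in miR-451 and miR-144, but not in miR-486 or mapped reads. For this reason r over all 18 need not describe a relation within the 4 or within the 14. Over all 18, r of miR-486 was -0.53 with miR-451 and -0.70 with miR-144 (rho -0.34 and -0.53, adjusted permutation p of r = 0.026 and 0.00177). Over the 14, r was 0.33 with miR-451 and -0.05 with miR-144 (adjusted permutation p = 0.272 and 0.869), and r of miR-451 with miR-144 was 0.57 (adjusted permutation p = 0.0452). Without only the 2 samples farthest from the median, r with miR-486 was -0.16 and -0.51 and passed for neither.

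Over the 14 libraries, the difference in r between mammary gland and each other tissue was tested for miR-486 with miR-451 and with miR-144, by permuting tissue labels over standardised samples. The test was added after the r values were seen, so it is no independent support. Of 8 differences, 1 passed, that of miR-144 and miR-486 in liver against mammary gland, at 0.94 (adjusted permutation p = 0.043).

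Other miRNAs moved with these 4 libraries. The 4 were picked by low agreement over all miRNAs but the 3. Differences in other miRNAs thus follow in part from that choice and are given as a description. miR-16b, which is abundant in red blood cells, was at 181 to 798 CPM in the 4 and 1561 to 2687 CPM in the other 14. miR-142-5p, made by white blood cells, was at 234 to 1769 CPM against 2708 to 8086 CPM, and endothelial miR-126-3p at 1295 to 4815 CPM against 3661 to 13853 CPM. Not all miRNAs abundant in red blood cells moved alike. Over the 18, r with miR-451 was 0.80 for miR-16b, 0.72 for miR-16a, 0.62 for miR-15a and 0.48 for miR-363. For miR-185, miR-92a and miR-25 it was 0.08, -0.00 and -0.46. White blood cell miRNAs did not all move alike either. Their r with miR-451 was 0.76 for miR-142-5p, 0.70 for miR-223 and 0.60 for miR-142-3p. For miR-146a, miR-150 and miR-155 it was 0.20, -0.03 and -0.15. miR-223, at 4.57 to 22.4 CPM in the 4 against 17.5 to 158 CPM, overlapped. Some miRNAs of other cells were shifted too. In the 4 against the other 14, miR-200c of epithelium was at 1873 to 3845 CPM against 3109 to 11616 CPM. Smooth muscle miR-145 was at 336 to 1354 CPM against 753 to 2422 CPM. miR-143, also of smooth muscle, was at 176149 to 212002 CPM against 69396 to 226993 CPM. All 4 lay above its tissue median of 124723 CPM. miR-148a of mammary epithelium, at 86639 to 205801 CPM against 99081 to 216977 CPM, and miR-205, at 768 to 8442 CPM against 1525 to 6296 CPM, overlapped widely. Depth moved with them too: over the 18 mammary gland libraries, r with log2 of mapped reads was 0.57 for miR-451, 0.61 for miR-144 and -0.72 for miR-486, given as a description. The part of depth and of these other miRNAs in the levels of the 3 was not tested.

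**Figure D3:**
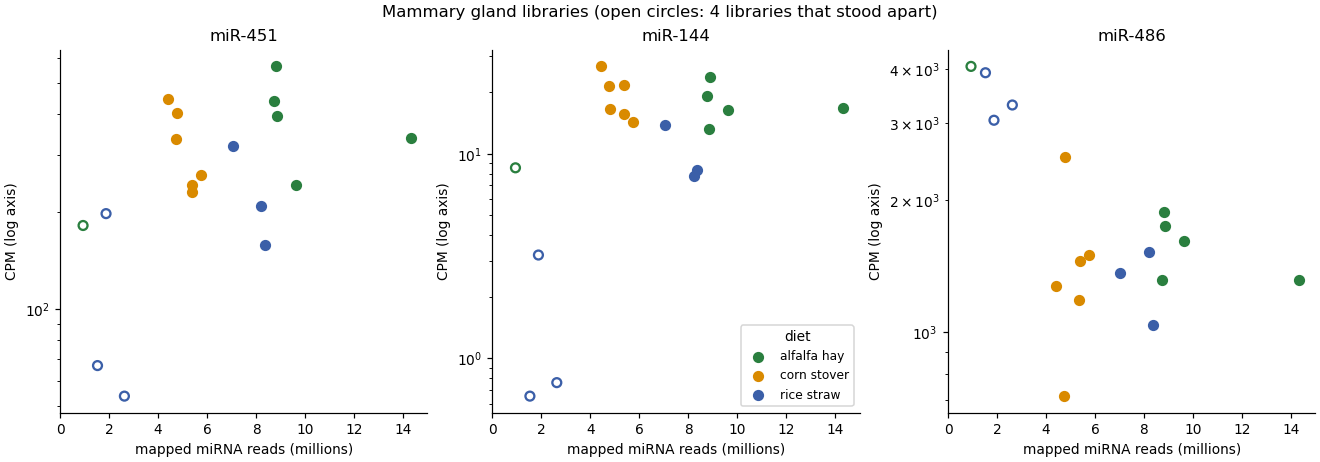
CPM on a log axis against mapped reads for the 18 mammary gland libraries, coloured by diet. The 4 open circles, 3 of rice straw and 1 of alfalfa hay, have at most 2624975 reads, the highest miR-486 (3051 CPM and above) and low miR-451 and miR-144.

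The ratio of 2 miRNAs within a library was taken from CPM + 1. Without the added 1, such a ratio does not depend on how the library was scaled, and since none of the 3 was at 0 in any library it was also taken that way, a setting chosen after the values were seen. The ratio of miR-451 to its cluster partner miR-144 was 12.7-fold in duodenum, 12.8-fold in jejunum and 12-fold in liver (log2 means of 3.67 ± 0.29, 3.67 ± 0.30 and 3.59 ± 0.37, SD, n = 18), although the level of both differed severalfold between liver and gut. On that scale the differences among these 3 tissues were between -0.09 and 0.00 on the log2 scale (adjusted permutation p of at least 0.476 over the 30 comparisons of ratios). In rumen the ratio was 18.3-fold (4.19 ± 0.54) and in mammary gland 20.8-fold (4.38 ± 0.59), each higher than in the former 3 (adjusted permutation p of at most 0.00169). Rumen and mammary gland did not differ beyond their spread (0.19, adjusted permutation p = 0.375). Without the 4 libraries, mammary gland was also at 18.3-fold. The added 1 lowers these ratios most where miR-144 is low. Without it the ratio was 12.2-fold in liver, 14.5-fold in duodenum, 14.6-fold in jejunum, 22-fold in rumen and 24.6-fold in mammary gland, or 19.5-fold over its 14 libraries. Liver then differed from duodenum by -0.26 and from jejunum by -0.27 (adjusted permutation p = 0.0383 and 0.0407), while duodenum and jejunum again did not differ beyond their spread (0.01, adjusted permutation p = 0.948). In all, 6 of 10 pairs of tissues differed in this ratio, and 8 of 10 without the added 1.

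miR-486 relative to miR-451 varied more between tissues. Its ratio was 1.73-fold in rumen, 2.62-fold in liver, 3.29-fold in duodenum, 4.45-fold in jejunum and 7.05-fold in mammary gland, with log2 means of 0.79 ± 0.84, 1.39 ± 0.36, 1.72 ± 0.46, 2.15 ± 0.47 and 2.82 ± 1.38 (SD, n = 18). Liver had the smallest SD and mammary gland the largest, which became 0.54 without the 4 libraries, below that of rumen. Of the 10 pairs of tissues, 9 differed (adjusted permutation p of at most 0.0288), all but mammary gland against jejunum at 0.67 (adjusted permutation p = 0.072). Without the 4 libraries the mammary gland ratio was 4.53-fold and its difference from jejunum 0.03. Liver against duodenum, at -0.33, no longer passed without the liver library that held miR-205 (-0.29, adjusted permutation p = 0.0503) or with a replicate block (adjusted permutation p = 0.0561). Relative to miR-144, miR-486 was 31.4-fold in liver, 31.6-fold in rumen, 41.9-fold in duodenum, 56.7-fold in jejunum and 147-fold in mammary gland, or 83-fold over its 14 libraries. Without the added 1 these were 31.9-fold, 38.1-fold, 48.2-fold, 65.5-fold and 174-fold, or 88.4-fold over the 14. Liver and rumen did not differ in that ratio beyond their spread (-0.01, adjusted permutation p = 0.979), and neither did duodenum and rumen (0.41, adjusted permutation p = 0.072).

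**Figure D4:**
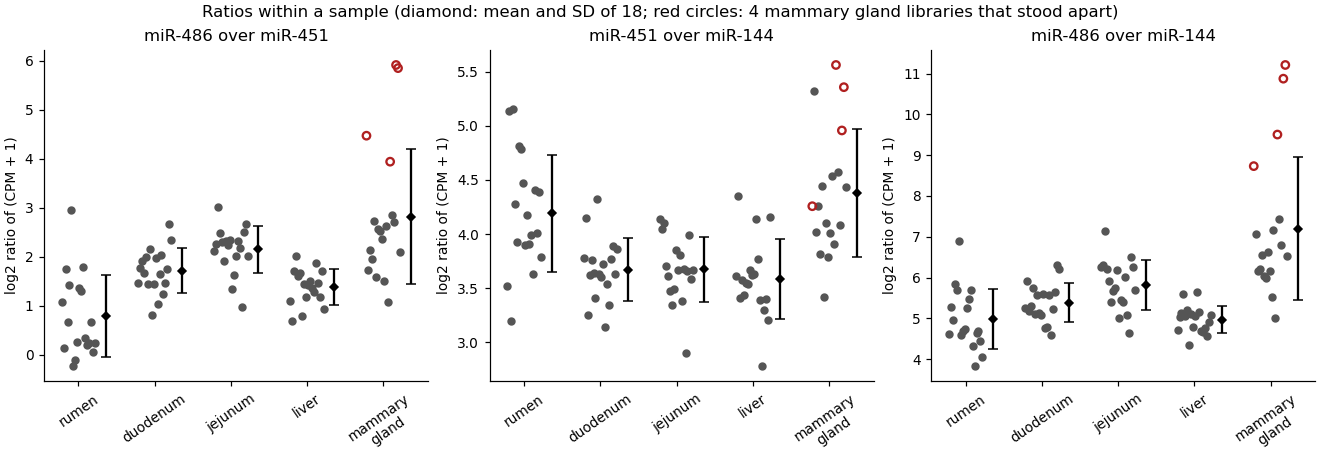
log2 ratios of each pair of the 3 miRNAs, from CPM + 1, in every library, with the mean and SD of the 18 as a diamond. miR-451 over miR-144 has the same mean in duodenum and jejunum (3.67), and the 4 red circles hold the highest mammary gland values of both ratios with miR-486.

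Diet was compared within each tissue by a limma F test over 3 groups of 6. In rumen, duodenum and liver, 0 of 3 miRNAs passed, where 1.49%, 0% and 0% of all listed miRNAs did, and 0 of 3 passed without adjustment or by edgeR or DESeq2. The shares of all miRNAs beside the diet counts, here and below, are for limma after adjustment. For counts before adjustment or by edgeR or DESeq2 they are not given. In liver, for example, the median of miR-451 was 886 CPM on alfalfa hay, 1241 CPM on corn stover and 937 CPM on rice straw, and the 3 diets overlapped nearly fully. In rumen the medians of miR-451 were 94.9, 196 and 156 CPM in the same order, within ranges as wide as 26.9 to 725 CPM on corn stover alone. On simulated data with a log2 change of 1, the test of rice straw against alfalfa hay found 24 of 59 changed miRNAs in rumen, 41 of 56 in duodenum and 31 of 59 in liver, so differences of that size could go undetected. The simulation, here and below, drew miRNAs independently and limited the spread of each. Its rates are over randomly picked miRNAs and are not those of the 3.

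In jejunum, 0 of 3 passed by the limma F test, where 23.8% of all did, and 1 of 3 passed before adjustment. That 1 was miR-486, which lay between 417 and 826 CPM on alfalfa hay with a median of 726 CPM, between 222 and 1428 CPM on corn stover with a median of 495 CPM, and between 297 and 413 CPM on rice straw with a median of 353 CPM. The alfalfa hay and rice straw groups did not overlap, while corn stover spanned both. The share of all miRNAs without overlap between these 2 groups is not given. The adjusted p of its F test was 0.0693 in limma on the deposited CPM, 0.031 with TMM scaling, 0.0244 with upper-quartile scaling and 0.0275 in edgeR. The likelihood ratio test of DESeq2 gave an adjusted p of 0.00811. Rice straw against alfalfa hay gave -0.90 ± 0.29 for miR-486, with an adjusted p of 0.494 in limma, in a contrast where limma called 0% of all miRNAs. Here limma, edgeR and DESeq2 each called 0 of 3, and 1 of 3 before adjustment. Between rice straw and corn stover, where limma called 28.6% of all, it called 0 of 3, with 0 of 3 before adjustment. edgeR called 1 of 3 and DESeq2 2 of 3, but the share of all miRNAs that each called in this contrast is not given. The limma values there were -0.48 ± 0.29 for miR-486, -0.61 ± 0.41 for miR-451 and -0.60 ± 0.44 for miR-144, and edgeR had -0.84 for miR-486 (adjusted p = 0.0273). On corn stover, replicate 4 was far above the rest for all 3. Against alfalfa hay, the values of miR-451 and miR-144 were -0.66 ± 0.41 and -0.39 ± 0.44, with adjusted p-values of 0.776 and 0.848 in limma. Over the 18 jejunum libraries miR-486 also moved with depth (r of -0.58 with log2 of mapped reads), and the part of depth in its diet values was not tested.

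In mammary gland, 1 of 3 passed by the limma F test, where 3.72% of all did. It was miR-144 (F = 11, adjusted p = 0.0434). The call was lost with upper-quartile scaling (adjusted p = 0.0535), a pseudocount of 0.1 (0.0656), in edgeR (0.118) and without the 4 libraries that stood apart (0.0549). On corn stover its 6 values lay between 14.2 and 26.7 CPM with a median of 18.9 CPM, on alfalfa hay between 8.53 and 23.6 CPM with a median of 16.5 CPM, and on rice straw between 0.655 and 13.8 CPM with a median of 5.5 CPM. All 6 rice straw libraries were below all 6 corn stover libraries, and 3 of these rice straw libraries are among the 4 that stood apart. How many of all miRNAs were separated in this way is not given. For miR-451 the medians were 297 CPM on corn stover, 367 CPM on alfalfa hay and 178 CPM on rice straw, and the ranges of 230 to 446 CPM and 53.7 to 318 CPM for corn stover and rice straw overlapped. miR-486 had medians of 1363 CPM on corn stover, 1683 CPM on alfalfa hay and 2287 CPM on rice straw, with wide overlap.

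Between rice straw and corn stover in mammary gland, 2 of 3 miRNAs were lower, where 25.1% of all were. miR-144 differed by -2.01 ± 0.46 and miR-451 by -1.14 ± 0.41 (adjusted p = 0.0116 and 0.0481, limma), and miR-486 by 0.64 ± 0.38 (adjusted p = 0.215, limma), where the median of all 323 tested was -0.63. DESeq2 called miR-144 as lower (-1.01, adjusted p = 0.0377) and miR-486 as higher (1.73, adjusted p = 0.0177), edgeR called 0 of 3, and limma with a pseudocount of 0.1 called 1 of 3. Of the 86 called, 81 were lower on the deposited CPM, whereas TMM scaling called 36, of which 16 were lower, and upper-quartile scaling called 41, of which 10 were lower. With these 2 scalings the median miRNA was at -0.00 and 0.14, miR-451 was at -0.40 and -0.21 and no longer passed (adjusted p = 0.505 and 0.769, limma), and miR-144 was at -1.41 (adjusted p = 0.0356) and -1.24 (adjusted p = 0.0634). Without the 4 libraries that stood apart, which left 3 rice straw libraries, miR-144 was at -0.90 (adjusted p = 0.0208, limma), miR-451 at -0.50 (adjusted p = 0.23) and miR-486 at -0.06 (adjusted p = 0.896). Against alfalfa hay, rice straw gave -1.74 ± 0.46 for miR-144 and -1.26 ± 0.41 for miR-451, and neither passed in limma (adjusted p = 0.281 for each), where 0% of all did. Before adjustment 2 of 3 passed in limma, and edgeR and DESeq2 each called 0 of 3 after and 1 of 3 before adjustment. The shares of all miRNAs for these counts are not given. On simulated data, the test of this contrast found 2 of 57 miRNAs changed by 1 on the log2 scale, so differences of that size would mostly go undetected.

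Whether diet acted differently between tissues was tested by a limma F test of the diet by tissue terms, which called 45.7% of the 289 miRNAs. It called 1 of 3, miR-144 (F = 2.53, adjusted p = 0.0381), with adjusted p-values of 0.572 for miR-451 and 0.243 for miR-486. The call of miR-144 was lost without the 4 mammary gland libraries (adjusted p = 0.742, limma). It was also lost with TMM scaling, upper-quartile scaling, a larger pseudocount or without the libraries under 2000000 reads.

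All 5 tissues were collected from each cow, and the titles carry a number within each diet, but nothing in the labels says that a number marks the same cow in every tissue. Libraries of the same diet and number were compared in the log2 of the summed CPM of the 3 miRNAs. Pearson's r over the 18 pairs lay between -0.38 for duodenum with liver and 0.22 for rumen with mammary gland, and 0 of the 10 pairs of tissues passed (adjusted permutation p of at least 0.892), with 0 under 0.05 before adjustment. Spearman's rho lay between -0.38 and 0.30 (adjusted permutation p of at least 0.774). The sum is mostly miR-486. For miR-451 and miR-144 alone, 0 of 10 pairs passed as well, and 1 pair each was under 0.05 before adjustment, jejunum with mammary gland. There r was 0.58 for miR-451 (rho 0.50, permutation p of r = 0.0159, adjusted p = 0.159, r of 0.47 without the 2 farthest samples) and 0.57 for miR-144 (rho 0.33, permutation p of r = 0.0162, adjusted p = 0.162, r of 0.42 without them).

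Other miRNAs of blood and vessels were called in both directions between the same tissues. Of 7 further miRNAs abundant in red blood cells (miR-16a, miR-16b, miR-15a, miR-92a, miR-25, miR-185 and miR-363), 2 were higher and 3 lower in liver than in rumen, where 28.4% and 54.3% of all were, with a median of -0.21 against -0.47 for all 289. miR-185 was higher by 1.74 and miR-15a by 0.45, whereas miR-16b, at 1356 ± 187 CPM in liver and 4151 ± 891 CPM in rumen (SD, n = 18), was lower by -1.59 and miR-25 by -1.25. These 7 are also made by many other cells. In liver against duodenum 2 were higher, miR-92a by 1.84 and miR-185 by 1.07, and 4 were lower, where 31.8% and 50.2% of all were.

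The 6 white blood cell miRNAs were highest in the intestine. In jejunum, 6 of 6 were higher than in rumen, where 29.4% of all were, with a median of 2.01 against -0.19 for all, led by the lymphocyte miRNA miR-150 at 3.42 and the myeloid miRNA miR-223 at 3.34. In liver, 6 of 6 were lower than in jejunum (median -2.40), where 51.9% of all were. Against duodenum 6 of 6 were lower as well, where 50.2% of all were. The 3 red blood cell miRNAs had the opposite direction in both contrasts. In mammary gland against liver, 5 of 6 were lower, where 30.1% of all were, and miR-155, made by activated lymphocytes, was higher by 0.79, where 39.1% of all were higher. The endothelial pair miR-126-3p and miR-126-5p was at -0.31 and 0.10 in liver against rumen (adjusted p = 0.118 and 0.53, limma), a contrast in which 82.7% of all were called. Both were lower in jejunum than in rumen, where 43.9% of all were, at -0.71 and -0.46.

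**Figure D5:**
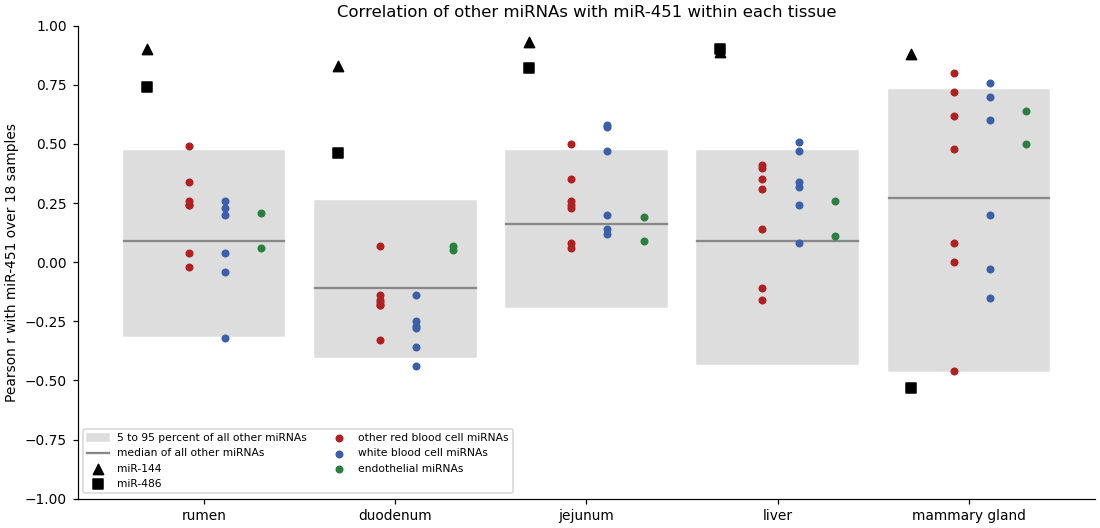
Pearson r with miR-451 over the 18 libraries of each tissue for miR-144, miR-486 and the 3 lists, with the band holding 5 to 95 percent of all other listed miRNAs and their median. miR-144 lies above the band in every tissue and miR-486 in all but mammary gland, where it is at -0.53, while most list miRNAs fall inside.

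Across single tissues, miR-144 and miR-486 held places 1 and 2 among all other miRNAs in their r with miR-451 in rumen (339 miRNAs), jejunum (336) and liver (329). In duodenum miR-144 was number 1 and miR-486 number 5 of 337, and in mammary gland miR-144 was number 2 and miR-486 number 316 of 327. Outside the 3, the most alike in rumen were miR-29b (0.65), miR-23a (0.64) and miR-22-5p (0.59), and in liver miR-425-3p (0.63), miR-29b (0.59) and miR-106b (0.56). In jejunum they were miR-499 (0.67), miR-29a (0.62) and miR-142-3p (0.58), and in duodenum miR-124b and miR-124a (0.55 each) and miR-184 (0.38). In mammary gland miR-141 (0.89), miR-186 (0.86) and miR-338 (0.85) were at 0.59, 0.54 and 0.37 over the 14 libraries. These correlations are descriptions over 18 libraries that share their normalization, and the points of mammary gland also share the difference in depth.

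The red and white blood cell lists lay nearer to the median of all miRNAs than to miR-144 in their r with miR-451. The median r with miR-451 of the 7 red blood cell miRNAs was 0.24 in rumen, -0.17 in duodenum, 0.24 in jejunum and 0.31 in liver, against medians of 0.08, -0.11, 0.16 and 0.09 for all others. For the 6 white blood cell miRNAs it was 0.12, -0.28, 0.33 and 0.33. In mammary gland the 2 medians of 0.48 and 0.40 became -0.15 and -0.35 over the 14 libraries, against 0.27 and -0.11 for all others. The endothelial pair had a median of 0.57 in mammary gland and 0.38 over the 14 libraries, and between 0.06 and 0.19 in the other tissues. With the summed level of the 3 in place of miR-451, the median r of the 7 was -0.64 in mammary gland, 0.23 in liver, 0.17 in jejunum, 0.04 in duodenum and 0.10 in rumen, where all others had medians of -0.56, 0.05, 0.16, -0.01 and 0.01. That of the 6 was -0.63, 0.25, 0.30, -0.21 and -0.09 in the same order.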

How the data were processed

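Small RNA libraries of 90 tissue samples were sequenced on an Illumina HiSeq, and all 90 tables were used. The authors filtered reads with CASAVA 1.8 (also in the submitters' processing notes), trimmed adaptors and aligned reads over 15 nt to bovine precursors of miRBase 22 with sRNAbench (seed 20, up to 2 mismatches and 10 mappings), and deposited CPM of each miRNA per sample. Near-identical miRNAs (miR-16a and miR-16b, miR-124a and miR-124b) may share reads. The genome build is not given in the sources used here. All 30114 values, or 100%, were whole multiples of a sample's step within 0.05 reads, so reads were recovered.

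Groups came from the labels. limma 3.58.1 in R 4.3.3 (eBayes with trend) was run on log2(CPM + 1) for miRNAs above 1 CPM in over 50% of the samples of a tissue, with Benjamini-Hochberg adjustment at 0.05. edgeR 4.0.16 and DESeq2 1.42.0 on recovered reads were alternatives, and over the 3 diets DESeq2 used a likelihood ratio test in place of the F test. Between rice straw and corn stover in mammary gland, limma called 86, edgeR 57 and DESeq2 83 miRNAs. Correlations and ratios used 2-sided permutation tests with 100000 resamples (numpy 2.4.6). Libraries with a median rho under 0.95 to their tissue, or, in liver, over 100 CPM of miR-205, were left out in alternatives chosen after seeing the data. The fits were tested on simulated data. Replicates are separate cows within a tissue. The 3 miRNAs and the lists were chosen with earlier results of these data known. Named miRNAs are the 3, the list members, and per tissue the 3 others of at least 10 CPM most correlated with miR-451. The sequences of the miRNAs are not shown here.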

Additional observations from a re-analysis of the deposited data

Results flagged for a closer look

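In 45 groups of 6 samples, 5 held a sample set apart from the other 5 by Dixon's criterion at 95% confidence, in each case the highest. The chance rate of about 1 in 20 holds for independent groups of normally distributed values. These groups are CPM of 3 related miRNAs in the same libraries, so the count cannot be set against that rate. In jejunum on corn stover, replicate 4 was highest for all 3 miRNAs, at 559 CPM of miR-451, 43 CPM of miR-144 and 1428 CPM of miR-486. In liver on alfalfa hay, replicate 2 was highest for miR-451 at 2471 CPM and is the library that also held miR-205. In mammary gland on alfalfa hay, replicate 1 was highest for miR-486 at 4051 CPM and is the library with the fewest reads.

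With all libraries in, Pearson's r of miR-486 with miR-451 in mammary gland was lower than in the other tissues, by 1.27 for rumen, 0.99 for duodenum, 1.35 for jejunum and 1.43 for liver. That of miR-486 with miR-144 differed by 1.44, 1.09, 1.40 and 1.59 in the same order. These 8 differences were noticed before they were tested and rest on an r that includes the 4 mammary gland libraries that stood apart. They are given as values only. Over the other 14 mammary gland libraries, the differences were 0.41, 0.13, 0.49 and 0.57 with miR-451 and 0.78, 0.44, 0.75 and 0.94 with miR-144. The diet by tissue interaction test called miR-144 (F = 2.53, adjusted p = 0.0381 in limma), where it called 45.7% of all 289 miRNAs. The call of miR-144 was lost without the 4 mammary gland libraries and without the libraries under 2000000 reads. TMM scaling, upper-quartile scaling and a larger pseudocount each removed the call too.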

How the results depend on the processing

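miR-144 differed in 4 of 10 pairs of tissues, and in 7 without the libraries under 2000000 reads or without the 4 mammary gland libraries. By the diet F test miR-144 passed in 1 tissue, and in 0 with upper-quartile scaling, a pseudocount of 0.1, edgeR or without the 4 libraries, while miR-486 passed in 0 tissues, and in 1 with TMM scaling, upper-quartile scaling, edgeR and DESeq2. The interaction of miR-144 had an adjusted p in limma of 0.164 with TMM scaling, 0.156 with upper-quartile scaling, 0.0631 with a pseudocount of 5, 0.275 without the libraries under 2000000 reads and 0.742 without the 4 libraries, and that of miR-486 had 0.0442 with upper-quartile scaling. Several differences that did not pass turned sign: miR-144 between duodenum and rumen (0.31 with TMM, 0.15 with upper-quartile scaling, 0.05 with a pseudocount of 0.1, 0.09 in edgeR, 0.01 in DESeq2), miR-144 of mammary gland between corn stover and alfalfa hay (-0.15, -0.36, -0.12 in edgeR, -0.14 in DESeq2), and miR-486 of mammary gland without the 4 libraries (-0.27 for rice straw against alfalfa hay, -0.06 against corn stover). The r of miR-451 and miR-486 in mammary gland became 0.05 with TMM, 0.17 with upper-quartile scaling and 0.33 without the 4 libraries. The cause was not tested. Same-numbered libraries of 2 tissues deviated together by over 0.1 in 80 of 180 pairs, and 57 of 180 correlated best with their own number, most often duodenum with jejunum (14 and 10 of 18). The labels do not say that a number marks a cow, so the main tests did not pair by it. With a replicate block, the mammary gland difference of miR-486 from liver was -0.49 (adjusted p = 0.0529 in limma), and the liver ratio of miR-486 to miR-451 differed from duodenum by -0.33 (adjusted permutation p = 0.0561). Counts of calls over all miRNAs by the diet F test in mammary gland were 12 in limma and 26 in edgeR, and 62 by the likelihood ratio test of DESeq2. In limma they were 38 without the libraries under 2000000 reads, 61 without the 4 libraries and 55 with a block. That block was on the bare number, which different cows on the 3 diets share, whereas the block between tissues was on diet and number. At 937556 reads, 3 reads are worth 3.2 CPM, which limits miR-144 in the shallow libraries.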
